A study of Caenorhabditis elegans with 2 samples.

Results

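The X-linked genes described here gave almost no RNA counts in wild-type gonads and a measurable count in gonads of YBT7, a Caenorhabditis elegans strain whose X chromosome is bisected. They were chosen by 2 limits on the deposited raw counts: at most 2 counts in wild type, and at least 6 counts over both libraries together. These limits selected 240 of the 6009 X-linked genes of a table of 46739 genes. The same limits selected 1124 autosomal genes. A gene that meets both limits must have at least 4 counts in YBT7, so the limits favour a rise in YBT7 on every chromosome. The rise of the 240 genes is therefore a description and not a result, and each pattern was set against the autosomal genes chosen in the same way.

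Gonads of adult worms were dissected 24 h after the L4 stage, and 1 RNA-seq library was made for each strain. The wild-type worms were N2, the laboratory reference strain. The YBT7 worms carried deg-1(huj32) linc-20(huj2) hujCf1. In this strain an internal segment of X, 8.74 Mb long and proposed to be circular, is separated from a linear segment that joins both outer parts, and the study's methods mention further aberrations in this strain that were not verified. The source label of the YBT7 library also holds the words wild type, while its title and genotype give YBT7, and the latter were used. No library was repeated, so no p-value was computed, and every interval below is a 95% interval that covers counting error only and not the difference between worms or dissections. The sources used here do not say whether reads with the same molecular identifier were counted once. If they were not, counts of a few reads may be copies of fewer molecules, and the intervals are too narrow.

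In hermaphrodite worms the X chromosomes are kept largely silent in proliferating and early meiotic germ cells, and their transcription resumes late in pachytene. The X is also poor in genes needed in the germline and rich in genes used in somatic tissues such as neurons, muscle and intestine. A dissected gonad also holds the somatic sheath and spermatheca, and can carry fragments of neighbouring tissue such as the intestine. In bulk RNA a lower number of cells of a type cannot be told apart from less RNA in each cell.

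The wild-type library held 2873065 counts in 12356 genes, and the YBT7 library 4525439 counts in 14188 genes. The size factors, which bring the libraries to one scale by the median ratio over genes, were 0.816 and 1.22, so a gene at the same relative level has 1.5 times as many counts in YBT7. A count of 2 in wild type equals 0.696 CPM, the count divided by the total of its library and brought to a common size, and a floor of 3 counts equals 1.04 CPM in the smaller, wild-type library and 0.663 CPM in the other. Together the 240 genes held 244 wild-type and 3089 YBT7 counts. That was 0.285% of all X-linked counts in wild type and 1.35% in YBT7, so most X-linked RNA in both libraries came from other genes. The X chromosome as a whole held 2.98% of the RNA counts in wild type, and in YBT7 5.07%. These shares include 5 X-linked genes for vitellogenins, the yolk proteins of the intestine. Together with 1 autosomal vitellogenin gene, they raised the sum of the intestinal list described below from 1050 to 3465 wild-type counts. For YBT7 they raised it from 13097 to 56501. Their part in the higher share of the X in YBT7 was not tested.

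Most members reached low counts in YBT7. Their YBT7 counts ranged from 4 to 142, with quartiles of 6, 9 and 15. The quartiles of the autosomal genes chosen by the same limits were also 6, 9 and 15, with a highest count of 648. In wild type, 76 members had no count, 84 had 1 count and 80 had 2 counts, and 35 members just reached the summed minimum. At least 10 counts in YBT7 were found for 108 members (45.0%), against 44.3% of the autosomal genes. At least 20 counts were found for 36 members (15%, autosomal genes 16.5%), and at least 50 for 6 members (2.50%, autosomal genes 2.94%). The distribution of YBT7 counts in the members was thus close to that of the autosomal genes at each of these levels, and the highest counts were autosomal.

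**Figure D1:**
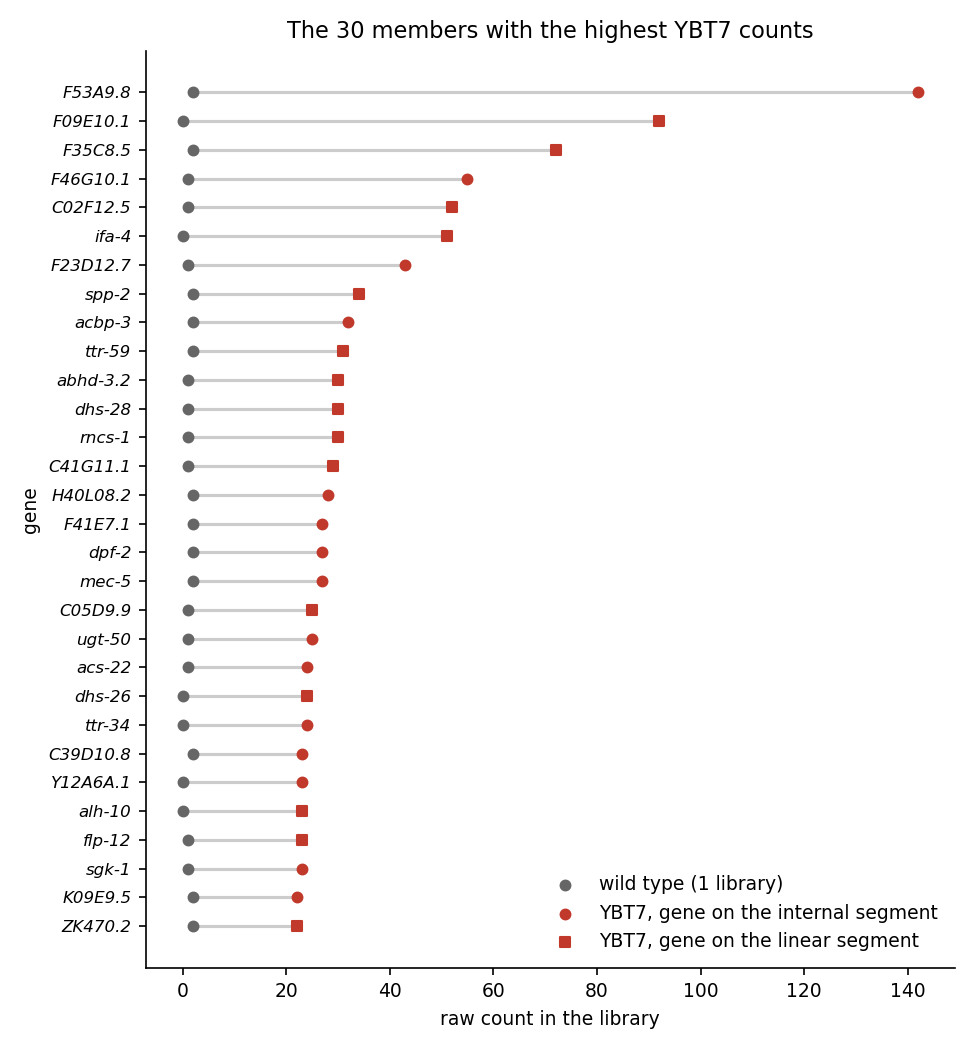
Raw counts (horizontal axis) of the 30 X-linked members with the highest YBT7 counts, 1 row for each gene, ordered by YBT7 count. Grey points are the wild-type library and red points the YBT7 library, with circles for genes on the internal segment and squares for genes on the linear segment. F53A9.8 reached 142 counts, and the 30 genes include 0 to 2 counts each in wild type.

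The highest member was F53A9.8, a protein-coding gene with 1 exon at X:8718558-8718974 (WBcel235, minus strand) on the internal segment. Its count was 2 in wild type against 142 in YBT7, a ratio of 47.3 at equal depth (interval 12.9 to 395). F09E10.1, at X:1502880-1503219 on the linear segment, had 0 and 92 counts. With wild type set at the floor of 3 counts it was 20.4-fold higher in YBT7, and the lower limit of its exact interval was 16.3. F35C8.5, at X:5365808-5367621, had 2 and 72 counts, a ratio of 24 (6.41 to 202). The files pair these genes with no described function, and their wide intervals come from the 0 to 2 wild-type counts.

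F46G10.1 had 1 and 55 counts (ratio 36.7, interval 6.31 to 1474), and C02F12.5 had 1 and 52 counts (ratio 34.7, interval 5.95 to 1395). The next gene, ifa-4, encodes a cytoplasmic intermediate filament protein of the intestine. It had 0 and 51 counts, 11.3-fold higher against the floor (lower limit of the interval 8.89). It overlaps K05B2.2 on the other strand, which had 78 and 74 counts. After F53A9.8 and F46G10.1, the leading members on the internal segment were F23D12.7 with 1 and 43 counts and acbp-3, which encodes an acyl-CoA-binding protein, with 2 and 32 counts. The linear segment held spp-2, a saposin-like protein gene, with 2 and 34 counts, and ttr-59, of the transthyretin-like family, with 2 and 31 counts.

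The remaining leading genes had 28 to 30 counts in YBT7. They were abhd-3.2 and dhs-28 with 1 and 30 counts each, C41G11.1 with 1 and 29 counts, H40L08.2 with 2 and 28 counts, and the noncoding RNA gene rncs-1 with 1 and 30 counts. The gene dhs-28 encodes a peroxisomal dehydrogenase of fatty acid beta-oxidation, and rncs-1 gives a noncoding RNA known from the hypodermis and intestine. The 15 genes with the highest counts came from both X segments. For comparison, the 5 autosomal genes with the highest YBT7 counts were C38D9.2 with 0 and 648 counts, F45D3.4 with 2 and 254, the lysozyme gene lys-4 with 2 and 246, D1086.10 with 2 and 198, and Y39B6A.1 with 0 and 195. Each of these 5 exceeded the highest X-linked member.

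Genes just inside the limits had 2 and 4 counts. There were 10 of them, among them the collagen gene col-186, hot-8, F38E9.1, C24H10.1, F28B4.4 and F39F10.4. Just outside, Y34B4A.6 had 3 and 233 counts and W05H9.1 had 3 and 86 counts, so the wild-type limit leaves out X-linked genes that rose further than most members. In all, 94 X-linked genes had 3 counts in wild type and 71 of these had at least 4 in YBT7. A further 56 genes, such as B0403.6 and C02B8.3 with 0 and 5 counts, missed the summed minimum by 1 count.

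To ask how many members exceeded a rise that allows for their low level, the rule of the study's methods was applied. It calls a gene when its mean normalized count is above 5 and its log2 fold exceeds 5 divided by the square root of that mean, plus 1. Of all 8604 nuclear genes with a mean above 5, 9.53% were called higher in YBT7. Among members, 94 had a mean above 5 and 67 of them were called higher (71.3%), with 0 called lower. Of the 427 autosomal chosen genes with such a mean, 304 were called (71.2%). The rule for choosing the genes used the same contrast, so nothing is read from these shares. Of all 1049 X-linked genes with a mean above 5, 197 were called higher (18.8%). The 67 members were 34% of these 197, and the 304 autosomal genes were 48.8% of the autosomal genes called higher. Both percentages also depend on how many genes with more wild-type counts were called. The other 130 called X-linked genes had at least 3 counts in wild type.

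The question that the choice of genes leaves untouched is whether near-silent X-linked genes met the limits more often than near-silent autosomal genes. Over all chromosomes, 11.7% of the 11167 near-silent protein-coding genes, those with at most 2 counts in wild type, met the limits. On the X it was 232 of 1661 genes, or 13.97% (exact binomial interval 12.3 to 15.7). On the autosomes it was 1071 of 9506 genes, or 11.3% (10.6 to 11.9). The share on the X was thus 1.24 times the autosomal share (1.09 to 1.41), an interval that treats genes as independent draws.

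The autosomes differed among themselves by more than the X differed from their pooled share. The share was 15.8% on chromosome III (13.6 to 18.2), 12.2% on I, 11.6% on IV, 11.23% on II and 9.54% on V. Chromosome III was above the X, with a ratio of X to III of 0.883 (0.734 to 1.06), and V was below it, with a ratio of X to V of 1.46 (1.25 to 1.71). The X therefore lay within the range of the autosomes. Its near-silent genes made up 62.3% of its protein-coding genes, against 56.0% on the autosomes, 73.4% on V and 39.5% on III.

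**Figure D2:**
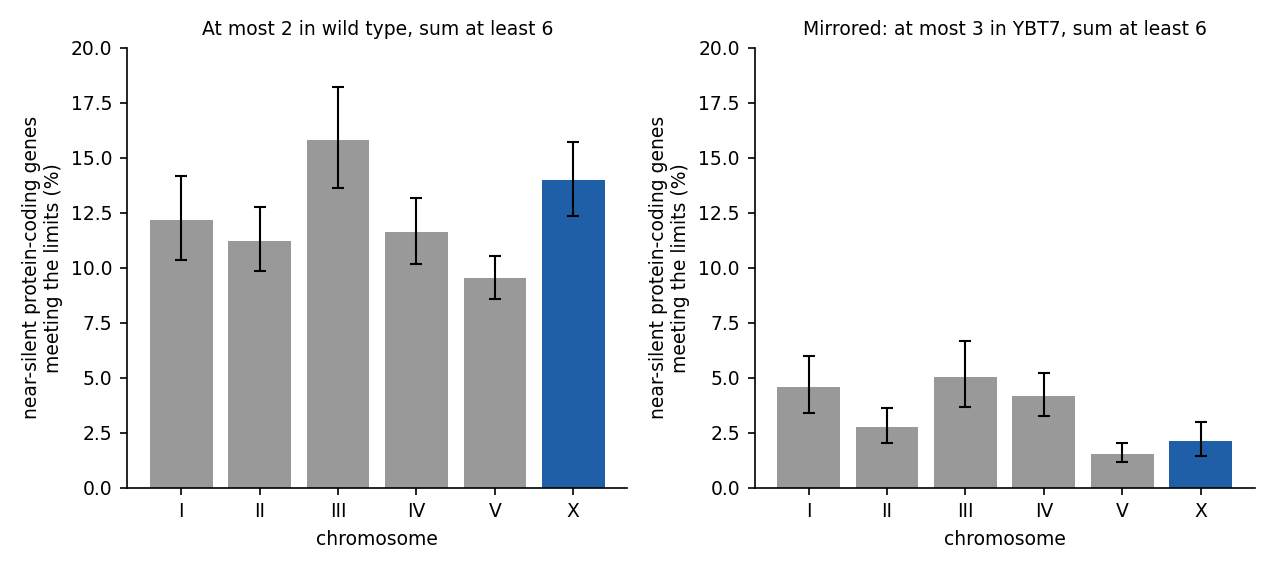
Share of near-silent protein-coding genes that met the limits (%, vertical axes) for each chromosome. The left panel takes genes with at most 2 counts in wild type and at least 6 in all, and the right panel the mirrored choice with at most 3 counts in YBT7. Bars are shares and error bars exact binomial 95% intervals. In the left panel the X (13.97%) lies between III (15.8%) and I (12.2%), and in the right panel it lies at 2.11%.

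Part of the low share on V moved with gene families that are large there. G protein-coupled receptors, F-box genes, C-type lectins and nuclear hormone receptors, taken by symbol, made up 1538 near-silent autosomal genes, of which 4.16% met the limits, and 85 near-silent X-linked genes, of which 5.88% did. Without these families, a comparison added after the data had been seen, the share was 14.4% on the X (12.7 to 16.2) and 12.6% on the autosomes (11.9 to 13.4). The ratio was then 1.14 (0.997 to 1.30).

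The mirrored choice took genes that were near silent in YBT7 instead, with at most 3 counts there and at least 6 counts in all. The limit of 3 matches the greater depth of the YBT7 library. This choice found 30 of 1420 X-linked protein-coding genes, or 2.11% (1.43 to 3.0), and 261 of 8609 autosomal genes, or 3.03% (2.68 to 3.42). The ratio of the X to the autosomes was 0.697 (0.480 to 1.01). More genes on every chromosome met the limits in the direction of YBT7 than in the mirrored direction. The summed minimum of 6 raw counts was not scaled to depth, and it asks more of the smaller wild-type library. The difference between the directions is therefore not read as a result. The mirrored ratio of the X to single autosomes ran from 0.420 (0.266 to 0.661) for III to 1.35 (0.866 to 2.12) for V. Its interval stayed below 1 for I, III and IV and included 1 for II and V.

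The excess on the X was seen at low YBT7 counts. Among genes with 0 counts in wild type, 120 of 1200 X-linked genes and 539 of 6935 autosomal genes (7.77%) had at least 4 counts in YBT7, a ratio of 1.29 (1.07 to 1.55). At 1 wild-type count the shares were 33.3% and 27.8%, a ratio of 1.20 (1.005 to 1.43), and at 2 counts 48.7% and 40.7%, also a ratio of 1.20 (0.996 to 1.43). At a YBT7 count of at least 20 the ratio was 1.13 (0.577 to 2.23) for genes with 0 wild-type counts. For 1 and 2 wild-type counts it was 0.956 (0.525 to 1.74) and 1.06 (0.587 to 1.92). Over all near-silent genes, the ratio for at least 10 counts in YBT7 was 1.24 (1.01 to 1.52), for at least 20 counts 1.06 (0.736 to 1.52), and for at least 50 counts 1.04 (0.437 to 2.48). At 20 counts and above the X could not be separated from the autosomes at this number of genes.

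Means over all near-silent genes need no limit on YBT7. The limit on the wild-type count alone also favours a rise in the other library, so the X is again read only beside the autosomes. The 1661 near-silent X-linked genes rose from a mean of 0.369 counts in wild type to 2.46 in YBT7, or 1.64 at the depth of the wild-type library. The 9506 autosomal genes went from 0.360 to 2.25 counts, or 1.503 at that depth. The autosomes spanned 1.33 on chromosome I to 1.84 on III on the same scale, and the X lay between them. Without the large families the means were 1.70 on the X and 1.69 on the autosomes. In YBT7, 51.5% of the near-silent X-linked genes still had no count, against 58.8% of the autosomal genes and 49.1% of those on chromosome III.

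By the ratio of shares, X-linked genes with at least 50 counts in wild type differed further from the autosomes than the near-silent ones, while those with 10 to 49 counts did not. A rise was scored when the normalized YBT7 count was above 2 times the wild-type value and the raw YBT7 count was at least 4. For 3 to 9 wild-type counts, 42.3% of 319 X-linked genes and 28.3% of autosomal genes passed, a ratio of 1.49 (1.28 to 1.74), while for 10 to 49 counts the ratio was 1.03 (0.788 to 1.34). From 50 to under 200 counts, 9.87% of X-linked and 3.12% of autosomal genes passed, and for 200 counts and above 18.4% of 49 X-linked and 0.400% of 2748 autosomal genes did. The ratios of 3.16 (1.98 to 5.05) and 45.9 (19.9 to 106) in the upper classes were above those of 1.29 and 1.17 in the near-silent classes. The classes do not share a base, since 7.77% of autosomal genes passed at 0 and 28.1% at 1 to 2 wild-type counts. At 0 wild-type counts the 2-fold condition held for any YBT7 count, so only the minimum of 4 counts applied. The sizes of the ratios are therefore not compared further between classes. Of the 31 X-linked genes of the upper classes that passed, 6 are in the list of intestinal genes described below, and 4 of the 9 with at least 200 counts encode vitellogenins, the yolk proteins made by the intestine.

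**Figure D3:**
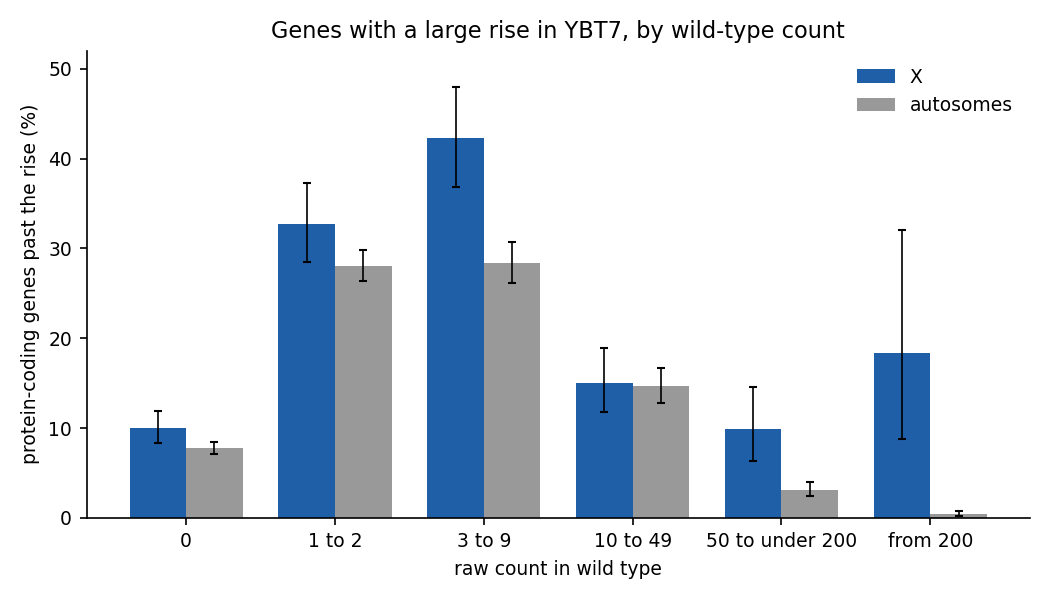
Share of protein-coding genes (%, vertical axis) whose normalized count in YBT7 was above 2 times that in wild type, with at least 4 raw counts in YBT7, by raw wild-type count (horizontal axis). Blue bars are X-linked and grey bars autosomal genes, with exact binomial 95% intervals. In the leftmost pair of classes the X was 1.29 and 1.17 times the autosomes, and at 200 counts and above 18.4% of X-linked against 0.400% of autosomal genes passed.

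The members lay along the whole chromosome. The internal segment held 115 of them (47.9%, interval 41.4 to 54.4) and holds 51.7% of all near-silent protein-coding genes of the X. The linear segment held 125, with 113 on its left part and 12 on its right part. On the internal segment 13.2% of near-silent protein-coding genes met the limits (11 to 15.6), and on the linear segment 14.8% (12.4 to 17.5). The ratio of 0.888 (0.699 to 1.13) did not separate the segments. The median YBT7 count was 9 on the internal and 8 on the linear segment, and the highest counts were 142 on the internal, 92 on the left and 17 on the right part.

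In windows of 1 Mb the share of near-silent genes that met the limits varied from 7.69% to 19.4%, with 6 to 21 members in each of the 18 windows. No window had an interval that left out the share of the whole X. The members nearest to the left end of the internal segment were F27D9.2, 96.1 kb outside it with 1 and 5 counts, and mec-7, 2.51 kb inside it with 1 and 7 counts. The gene mec-7 encodes a beta-tubulin of the touch receptor neurons, and it overlaps deg-1, the gene that carries huj32, which had 1 and 3 counts. At the right end, F38E9.1 lay 36.4 kb inside with 2 and 4 counts and the tRNA gene T27B1.t1 lay 12.8 kb outside with 1 and 8 counts. No member touched any of the 3 deletions of the strain, and linc-20, the gene of the other allele, had 4 and 0 counts.

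**Figure D4:**
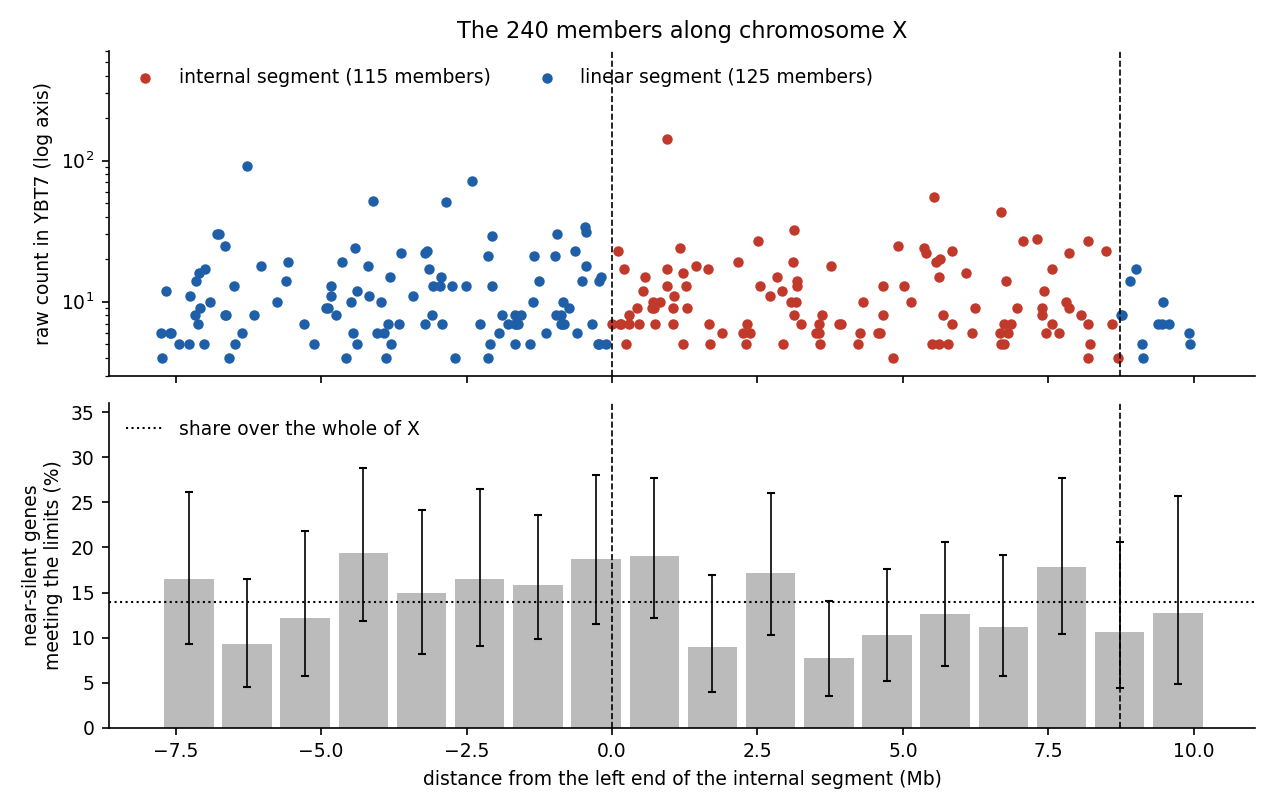
Members along chromosome X, by distance from the left end of the internal segment (Mb, horizontal axis), with dashed lines at both ends of that segment. The upper panel gives each member's raw YBT7 count on a log axis, in red for the 115 on the internal and blue for the 125 on the linear segment. In the lower panel, bars give the share of near-silent protein-coding genes that met the limits in each window of 1 Mb (%), with exact binomial 95% intervals, and the dotted line is the share over the whole X, 13.97%.

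By kind, 232 members are protein coding, 4 are pseudogenes, and 4 are noncoding RNA genes: rncs-1, the long noncoding RNA gene linc-34 with 2 and 5 counts, T27B1.t1 and 1 snoRNA gene. A gene name of the letter class, such as ifa-4, is carried by 113 members (47.1%), while the others have only a sequence name. Members were described by lists of genes for tissues and pathways and by gene families taken by symbol. A part of the list genes was known beforehand: 33 members had been read in a partial table before the lists were written, and 22 of these are in a list. The counts on the X for the lists are therefore not independent of the members. The part read held the first 1999 genes of the table, members and others alike, and counts over the list genes outside that part stand beside the full counts, on the X and on the autosomes. Over all near-silent protein-coding genes outside that part, 13.2% met the limits on the X and 10.9% on the autosomes.

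Genes of the intestine, the organ that absorbs food and makes yolk, met the limits in most near-silent cases on the X and on the autosomes. Of 10 intestinal list genes that were near silent on the X, 8 met the limits, with a median of 18 YBT7 counts against 9 for all members. On the autosomes, 8 of 10 met the limits. Of the 8 X-linked genes 7 had been read beforehand, and outside the part read it was 1 of 1 on the X and 4 of 5 on the autosomes. The genes with the highest counts were ifa-4, dhs-28, dhs-26 and alh-10. The dehydrogenase gene dhs-26 had 0 and 24 counts, and the aldehyde dehydrogenase gene alh-10 had 0 and 23. Against the floor dhs-26 was 5.33-fold higher (lower limit of the interval 4.01) and alh-10 was 5.11-fold higher (lower limit 3.83). Members with 0 wild-type counts were also pbo-4, a sodium/proton exchanger of the defecation cycle, and elt-2, a GATA factor of the intestine. They were joined by flr-1, a DEG/ENaC channel subunit, and kqt-2, a potassium channel. In YBT7 pbo-4, elt-2, flr-1 and kqt-2 had 13, 11, 8 and 7 counts. The other near-silent genes, elt-4 and aex-2, had 0 and 1, and 2 and 0 counts.

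Intestinal RNA as a whole was higher in the YBT7 library. The 46 genes of the list summed to 3465 counts in wild type and 56501 in YBT7, 10.9 times as much at equal depth, and 8.32 times without the vitellogenins. At equal depth 41 of the 46 genes were higher in YBT7, 11 had no count in wild type and 2 had none in YBT7. Autosomal genes of the intestine were among them: the esterase gene ges-1 had 0 and 15 counts and the actin gene act-5 had 68 and 685. The part of intestinal RNA in the members' rise was not tested.

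Genes of the hypodermis and cuticle, which form the skin of the worm, met the limits in 5 of 13 near-silent cases on the X and in 4 of 18 on the autosomes. Outside the part read beforehand it was 1 of 6 and 3 of 9. They were nas-37, an astacin protease used in molting, with 0 and 19 counts, adt-2, a secreted metalloprotease, with 1 and 15, the hedgehog-related gene grd-4 with 0 and 9, let-4 with 1 and 6, and the cuticle collagen gene dpy-7 with 2 and 5. The whole list was 5.33 times higher in YBT7 at equal depth, with 20 of its 53 genes at 0 in wild type, 10 at 0 in YBT7 and 32 higher in YBT7. Its part in the members' rise was not tested. The body wall muscle list, 3.05 times higher as a whole, had 1 near-silent gene on the X, which did not meet the limits. The aquaporin gene aqp-8, of the excretory list, had 0 and 13 counts and was 1 of 2 near-silent X-linked genes there.

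Of 27 near-silent X-linked genes of the neuronal list, which covers genes of the nervous system, 7 met the limits, and 3 of 37 did on the autosomes. Outside the part read beforehand it was 3 of 18 (16.7%, interval 3.58 to 41.4) on the X, which takes in the 13.2% of all such near-silent genes, and 2 of 24 on the autosomes. The ammonium transporter gene amt-4 had 1 and 22 counts, the acetylcholinesterase gene ace-1 had 0 and 7, and mec-7 and the zinc finger gene ham-2 had 1 and 7 each. The secreted immunoglobulin domain genes zig-3 and zig-2 had 0 and 7, and 0 and 6 counts. At equal depth the sum of the neuronal list was 1.13 times that of wild type, with 965 of its 3015 wild-type counts from snb-1, a synaptobrevin gene. Of the 102 genes, 41 had no count in wild type, 17 had none in YBT7 and 55 were higher in YBT7, and the part of neuronal RNA in the members' rise was not tested. The gene ace-1 overlaps a noncoding RNA gene on its own strand, F01G12.19, which had 377 and 732 counts.

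Channels and receptors of nerve and muscle met the limits in 5 of 21 near-silent X-linked cases and 4 of 40 on the autosomes. Outside the part read beforehand it was 2 of 9 and 2 of 17. They were twk-18, a potassium channel of muscle, with 1 and 16 counts, flr-1 and kqt-2, the gap junction gene inx-1 with 1 and 7, and the dopamine receptor gene dop-4 with 1 and 5. The genes flr-1 and kqt-2 are also in the intestinal list and are counted in both. The list as a whole was 0.908 times as high in YBT7. In the list for Wnt, FGF, EGF and Notch signalling, 3 of 5 near-silent X-linked genes met the limits and all of these had been read beforehand: lin-18, a Ryk receptor for Wnt, with 2 and 15 counts, egl-15, the FGF receptor, with 0 and 7, and bar-1, a beta-catenin, with 1 and 6. On the autosomes 6 of 9 did.

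The lists for cells of the gonad itself held few near-silent X-linked genes, so few members could come from them. Of the 5 X-linked genes of the somatic gonad list 2 were near silent, and both met the limits. The POU factor gene ceh-18, expressed in sheath cells, had 2 and 6 counts and the SOX factor gene egl-13 had 1 and 5. Both were read beforehand, and on the autosomes 2 of 5 near-silent genes met the limits. The germline and sperm lists had no near-silent X-linked gene. As wholes, the somatic gonad list was 1.46 times and the germline list 0.870 times as high in YBT7, and the sperm list, all autosomal, 0.225 times. The glia, pharynx and coelomocyte lists gave no member on the X, with 3, 0 and 0 near-silent X-linked genes, and the 3 coelomocyte genes, all autosomal, went from 0 to 22 counts together.

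Over the somatic lists, 23 members were listed (9.58%), against 2.31% of the autosomal chosen genes. Of near-silent somatic list genes, 23 of 58 met the limits on the X and 26 of 104 on the autosomes. Of the 23, 18 had been read beforehand. Outside the part read, 5 of 28 met the limits on the X (17.9%, interval 6.06 to 36.9) and 17 of 59 on the autosomes (28.8%, interval 17.8 to 42.1), and with intervals this wide no difference between them was detectable. Without any somatic list gene, 13.04% of near-silent X-linked and 11.1% of autosomal protein-coding genes met the limits, a ratio of 1.17.

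Families taken by symbol hold every gene of that name, whether read beforehand or not, although the families themselves were chosen with part of the members known. Their counts are read beside the 13.97% of all near-silent protein-coding genes on the X and the 11.3% on the autosomes, and no family was tested. Genes named as neuropeptides or other signalling peptides come first. Of 8 near-silent X-linked FMRFamide-like neuropeptide genes, 5 met them: flp-12 with 1 and 23 counts, flp-19 with 1 and 15, flp-26 with 1 and 9, flp-7 with 0 and 8 and flp-2 with 1 and 7. On the autosomes 4 of 6 did. Of 8 other neuropeptide-like genes, 4 met the limits, led by nlp-3 with 0 and 22 counts and nlp-37 with 2 and 14, and 17 of 22 did on the autosomes. Neither of 2 insulin-like peptide genes on the X and 6 of 30 on the autosomes met them.

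The 4 near-silent transthyretin-like genes of the X all met the limits, with 2 and 31 counts for ttr-59, 0 and 24 for ttr-34, 0 and 18 for ttr-30 and 0 and 14 for ttr-35. On the autosomes 8 of 30 did. Metabolic enzymes followed: both near-silent short-chain dehydrogenase genes (dhs-28 and dhs-26), both aldehyde dehydrogenase genes (alh-10, and alh-13 with 0 and 13 counts), 2 of 3 glucuronosyl transferase genes (ugt-50 with 1 and 25, ugt-46 with 1 and 11) and 2 of 7 cytochrome P450 genes (cyp-43A1 with 0 and 13, cyp-14A1 with 1 and 5). On the autosomes these families gave 5 of 11, 0 of 2, 17 of 48 and 13 of 64. Each of these families is small on the X, and none of the differences between chromosomes was tested.

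Among receptor and channel families the shares on the X were lower than or near the share of all near-silent genes there. The separate list of nerve and muscle channels and receptors gave a higher share, 5 of 21, which includes flr-1 and kqt-2 of the intestinal list. Of 57 near-silent G protein-coupled receptor genes on the X, 2 met the limits (npr-21 with 2 and 7 counts, and dop-4), and 10 of 1094 did on the autosomes. Of 24 X-linked ligand-gated channel genes 1 did, lgc-32 with 0 and 16 counts, and of 15 potassium channel genes 2 did, twk-18 and kqt-2. Their autosomal counts were 9 of 58 and 3 of 37. No F-box gene of 19 and no helix-loop-helix factor of 6 met the limits, and 1 of 12 homeobox genes (ceh-18), 2 of 15 nuclear hormone receptor genes (nhr-14 with 0 and 10, nhr-120 with 0 and 6) and 2 of 18 collagen genes (col-176 with 1 and 5, col-186) did. Autosomal genes of these families gave 18 of 310, 0 of 14, 3 of 31, 19 of 201 and 6 of 93, in that order. The nuclear hormone receptor, potassium channel and collagen families on the X thus lay near the 13.97% of all near-silent genes there. Beside the neuropeptide and transthyretin-like genes above, other families of secreted proteins and the hedgehog-related family were mixed on the X. Of 7 astacin protease genes 1 met the limits (nas-37), and of 6 saposin-like genes 1 did (spp-2). Of 11 hedgehog-related genes 2 did (ptr-24 with 0 and 19 counts, grd-4). The autosomal counts of these families were 2 of 28, 3 of 8 and 5 of 59.

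**Figure D5:**
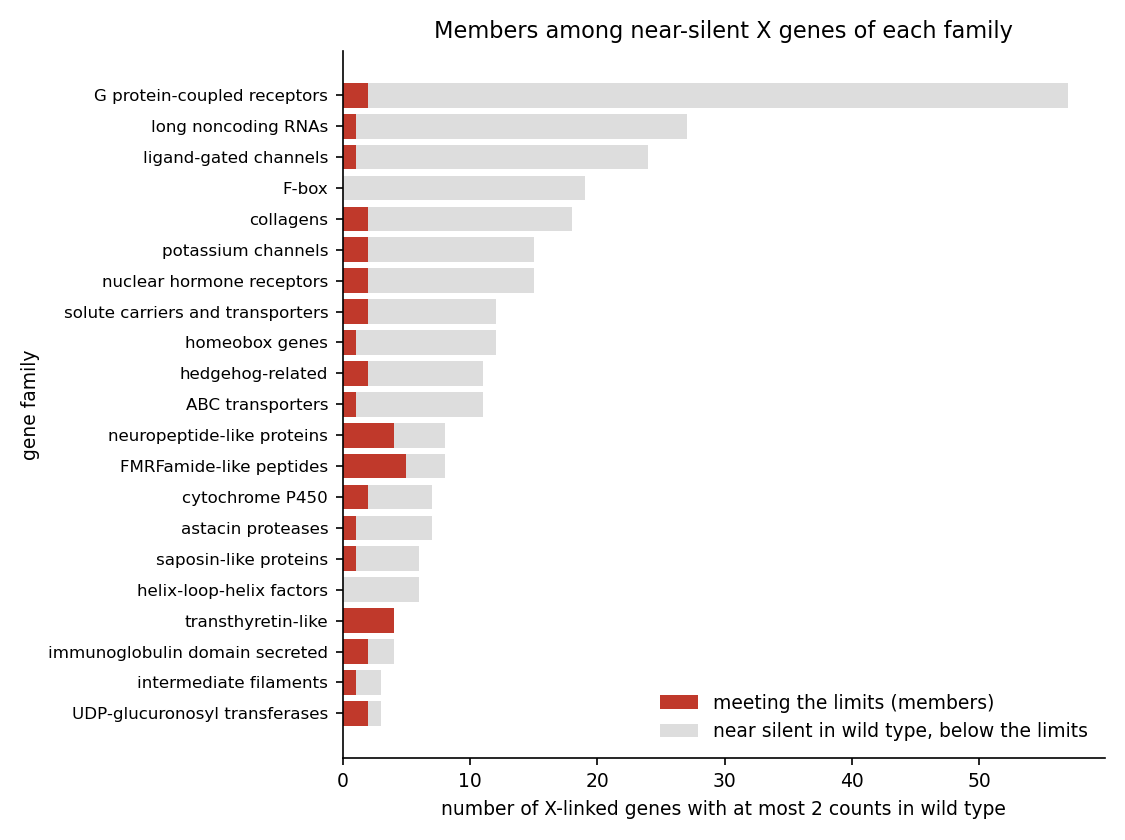
Number of X-linked genes with at most 2 counts in wild type (horizontal axis) in each gene family with 3 or more such genes. The red part of each bar counts the members, which met the limits, and the grey part those that stayed below them. All 4 transthyretin-like genes and 5 of 8 FMRFamide-like genes are red, against 2 of 57 G protein-coupled receptor genes and 0 of 19 F-box genes.

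Further members with known functions were grouped after their values had been seen, so these groups have no denominator and are examples. Median YBT7 counts were 18 for 9 members of lipid metabolism and peroxisomes, 13 for 6 transporters, 9 for 6 of lysosomes and glycans, 9 for 4 of amino acid metabolism, 8.5 for 10 of signalling and transcription and 8 for 4 of adhesion and junctions. The lipid and peroxisome genes included acs-22, a fatty acid transport protein homolog, with 1 and 24 counts, the choline kinase gene ckc-1 with 0 and 18, the fatty acyl-CoA reductase gene fard-1 with 1 and 13, and prx-3, needed for making peroxisomes, with 0 and 7. The lysosome and glycan genes ranged from the beta-galactosidase gene bgal-2 with 0 and 21 counts to the sphingomyelinase gene asm-2 with 0 and 6. Among regulators were the kinase gene sgk-1 with 1 and 23 counts and yap-1, the homolog of Yorkie, with 2 and 12. The histone demethylase family gene jmjd-3.2, related to enzymes that remove H3K27 methylation, had 1 and 5 counts, and it overlaps the member F23D12.7 on the other strand.

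The members were longer than near-silent genes that stayed below the limits. The median gene length of the protein-coding members was 2824 bp by the deposited gene positions. They had 7 exons and 1350 exonic bp by the Ensembl release 115 annotation. Only 12 of the 240 members had the same start and end in both, so gene length and exonic bp come from different gene models. Near-silent X-linked genes below the limits had 2093 bp, 6 exons and 1117 exonic bp. The autosomal chosen genes had 2217 bp, 5 exons and 1224 exonic bp, against 1621 bp, 5 exons and 1032 exonic bp below the limits. The chosen genes were thus longer at the median than the others on the X and on the autosomes.

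Of the members, 85 (35.4%) overlap another annotated gene, against 36.9% of the autosomal chosen genes and 28.1% of all near-silent protein-coding genes of the X. A partner with counts was found for 44 members, and 18 members overlap a gene with more YBT7 counts than their own. Of these, kqt-2 overlaps M60.2, which had 5 and 104 counts, and flp-2 overlaps W07E11.1, which fell from 204 to 76 counts. Counting used the default parameters of HTSeq, which assign reads by strand, and whether the libraries kept strand in that orientation is not given in the sources used here. Reads of a member and its partner may therefore not be told apart where they overlap. Without overlapping genes 155 members were left, and the ratio of the X share to the autosomal share was 1.28.

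The share of members that stood next to another member was close on the X and the autosomes, although members were denser on the X. They made up 8.71% of its protein-coding genes, and the chosen genes made up 6.30% of the autosomal ones. Among protein-coding genes in chromosome order, 43 of the 232 members (18.5%) stood next to another member, against 18.2% on the autosomes. Near-silent X-linked genes next to a member met the limits in 15.04% of cases and others in 13.7%, a ratio of 1.09 (0.806 to 1.48), while on the autosomes the shares were 15.5% and 10.6%, a ratio of 1.46 (1.26 to 1.68). The 21 runs were 20 pairs and 1 run of 3, mec-5 with 2 and 27 counts, col-186 with 2 and 4 and C09G1.5 with 1 and 7, all on the same strand within 18.3 kb of the internal segment. The collagen mec-5 is needed by the touch receptor neurons.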

How the data were processed

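RNA of dissected gonads was sequenced from poly(T) primers with molecular identifiers, 1 library each for wild type and YBT7. The authors trimmed reads with cutadapt 1.12, aligned them to WBcel235 with TopHat2 2.1.1 and counted them per gene with HTSeq 0.6.0. The deposited raw counts were used. The deposited normalized values, fold changes and decisions by the authors' DESeq2 1.12.4 run were not used. Unmapped columns of sample values numbered 0.

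Members and lists were chosen with earlier results of these data known. Size factors, the median of ratios, came from genes counted in both libraries (at least 3 counts), in Python 3.11.15, with pandas 2.3.3 and numpy 2.4.6. Exact binomial and exact conditional intervals (95%) used SciPy 1.17.1, and ratios of shares had log-normal intervals. edgeR 4.0.16 gave other scalings. The internal segment runs from position 7772344 to 16511093 of the X. Calls are a rule of size, since there is no replicate. Functions were checked on data with known answers.

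Named genes are the 15 members with the highest YBT7 counts, up to 4 per list, those nearest to each border, the 5 highest autosomal genes, genes just inside and outside the limits, the genes of the YBT7 alleles, and F07D10.1 and F54F7.6. Other names were chosen after their values were seen. A planned motif comparison was not run, since no sequence was used here. F07D10.1 (rpl-11.2), with 191 and 1039 counts, and F54F7.6, with 42 and 15, are not members.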

Additional observations from a re-analysis of the deposited data

How the results depend on the processing

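The share of near-silent genes that met the limits follows the limits by construction. With a wild-type count of at most 0, 1 and 5 it was 6.33%, 10.5% and 21.6% on the X and 4.54%, 8.38% and 17.8% on the autosomes, and the members numbered 76, 160 and 422. With a summed minimum of 10, 20 and 50 it was 7.22%, 2.23% and 0.361% on the X and 5.80%, 2.06% and 0.389% on the autosomes, with 122, 39 and 6 members, median YBT7 counts of 15, 25 and 63.5, and ratios of the X to the autosomes of 1.25, 1.08 and 0.928. At 50 the direction turned, on 6 X-linked genes, of which 33.3% were on the internal segment. With the YBT7 count scaled to equal depth the shares were 8.61% and 7.12%, the members 148 and their median 13. Over all genes of the table the shares were 4.83% and 3.41% and the ratio 1.42, and over genes with at least 1 count 22.2% and 20.1%, with a ratio of 1.10.

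Without overlapping genes the autosomal share was 9.69% and the members numbered 155. Without the large families, an alternative added after seeing the data, the autosomal share was 12.6%. Against chromosome III alone the ratio was 0.883, which turned the direction, and against V alone 1.46. The members called higher numbered 26 with a minimum mean of 10, and 54 to 94 under the other scalings, pseudocount and fixed folds. In the mirrored choice the other denominators, the YBT7 limit of 2 and the set without the large families gave ratios from 0.602 to 0.803, and against V alone the ratio was 1.35.

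No paired analysis was possible because each strain had 1 library. With 0 to 2 wild-type counts, the depth cannot separate a silent gene from one below 1.04 CPM, and differences between worms, dissections or amplification runs cannot be told apart from the strains.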

Other observations

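The highest member, F53A9.8, lies in a group of 4 short protein-coding genes within 7.45 kb of the internal segment. In wild type and YBT7 in turn, F53A9.1 had 1 and 17 counts, F53A9.6 had 0 and 13, F53A9.7 had 0 and 3 and F53A9.8 had 2 and 142. The members F53A9.1 and F53A9.6 are neighbours, and F53A9.7, which missed the summed minimum, stands between them and F53A9.8. The genes are 417 to 490 bp long, and how far they share reads was not tested.

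Pairs of neighbouring members included ttr-59 with 2 and 31 counts and ttr-30 with 0 and 18, on 1 strand within 2.01 kb. The pair cyp-43A1, with 0 and 13 counts, and C41G11.1, with 1 and 29, overlap on opposite strands, as do Y12A6A.2, with 1 and 7, and Y12A6A.1, with 0 and 23. Of the 21 runs, 11 were on 1 strand throughout.

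Neighbours of members that were not near silent themselves had medians near 0 and moved in both directions. On the X, 141 genes next to a member had a median log2 fold of -0.04 and 780 others of -0.13, with 26.2% and 24.5% of them above 1 and 13.5% and 14.2% below -1. On the autosomes the medians were -0.02 over 719 genes and -0.07 over 6197, with 16.6% and 9.36% above 1 and 4.03% and 3.47% below -1. The difference between genes next to a member and the others was not tested.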
